A study of Mus musculus with 8 samples.

Results

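The aminoacyl-tRNA synthetases are the enzymes that join each amino acid to its tRNA, and 36 of them were followed in the brain of Pus1 mutant mice. They were chosen by gene symbol, 20 as cytosolic enzymes and 16, with names that end in 2, as mitochondrial enzymes. They are 36 of the 20887 named genes with a probe on the array, and their 45 probes are among 55681 different probes. Brain RNA came from 4 homozygous Pus1 mutant mice and 4 wild-type mice. Pus1 encodes pseudouridine synthase 1, which modifies uridines of cytosolic and mitochondrial tRNAs. The series title calls the animals a knockout, and the labels give the genotype as a homozygous mutant. All 8 mice were 14 to 16 weeks old, on C57BL/6J after 5 generations of backcrossing, with no treatment. RNA was taken from a cross section of the frozen whole brain, and 200 ng per mouse was labelled with Cy3 or Cy5. On each of 4 arrays 1 mutant was set against the wild-type mouse with its number, of like sex, and all 4 arrays were on 1 slide. Arrays 1 and 2 held females and arrays 3 and 4 males. The mutant was in Cy5 on arrays 1 and 3 and in Cy3 on arrays 2 and 4.

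Cells make 2 sets of these enzymes from nuclear genes. The cytosolic set charges the tRNAs that read nuclear messages, and the mitochondrial set is imported to charge the tRNAs encoded by mitochondrial DNA. Gars and Kars each encode both forms of their enzyme, so no separate mitochondrial gene for glycine or lysine exists. Part of the cytosolic set is held in a multisynthetase complex with the scaffold proteins Aimp1, Aimp2 and Eef1e1. Genes of several cytosolic synthetases are known targets of ATF4, a transcription factor of the integrated stress response that binds C/EBP-ATF response elements.

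Promoter sequences are shown because many cytosolic members were higher together, and because ATF4 and C/EBP proteins are known to bind the letters TGATGCAA. RefSeq's promoter table (build GRCm38.p6) held 27 of the 36 members, 13 cytosolic and 14 mitochondrial. It held no entry for Cars, Nars, Hars, Lars, Rars, Vars, Wars, Hars2 or Pars2. TGATGCAA, read on both strands, occurred in the window of 4 cytosolic members, Aars, Iars, Tars and Yars, and of 0 mitochondrial members, against 0.895% of the 32851 promoters of the table. The looser TGATGNAA, which contains the first motif, occurred in 5 cytosolic members (Gars in addition) and 0 mitochondrial members, against 3.97% of all promoters. The 4 promoters with TGATGCAA are printed 5′ to 3′ on the strand of the gene, with each match to TGATGNAA or its reverse complement in capitals. Aars lies at chr8:111033592-111033871 on the plus strand, Iars at chr13:49681880-49682159 on the plus strand, Tars at chr15:11399629-11399908 on the minus strand, and Yars at chr4:129189653-129189932 on the plus strand. Each stretch ends 30 bases after the start site.
Aars: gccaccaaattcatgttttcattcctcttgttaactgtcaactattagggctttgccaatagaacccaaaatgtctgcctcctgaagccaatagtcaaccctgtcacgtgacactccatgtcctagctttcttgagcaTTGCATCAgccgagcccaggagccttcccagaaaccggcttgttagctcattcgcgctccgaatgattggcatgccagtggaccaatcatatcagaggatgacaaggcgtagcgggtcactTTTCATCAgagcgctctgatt
Iars: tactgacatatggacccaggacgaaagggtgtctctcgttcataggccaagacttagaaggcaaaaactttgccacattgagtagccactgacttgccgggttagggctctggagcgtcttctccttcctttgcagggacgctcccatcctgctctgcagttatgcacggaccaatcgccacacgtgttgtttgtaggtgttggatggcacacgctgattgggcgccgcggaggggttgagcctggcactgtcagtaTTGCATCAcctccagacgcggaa
Tars: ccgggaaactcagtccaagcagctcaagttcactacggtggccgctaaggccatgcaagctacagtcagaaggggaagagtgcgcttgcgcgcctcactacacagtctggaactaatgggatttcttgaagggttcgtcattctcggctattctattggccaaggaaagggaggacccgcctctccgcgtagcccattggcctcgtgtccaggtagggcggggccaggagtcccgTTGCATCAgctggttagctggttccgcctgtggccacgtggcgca
Yars: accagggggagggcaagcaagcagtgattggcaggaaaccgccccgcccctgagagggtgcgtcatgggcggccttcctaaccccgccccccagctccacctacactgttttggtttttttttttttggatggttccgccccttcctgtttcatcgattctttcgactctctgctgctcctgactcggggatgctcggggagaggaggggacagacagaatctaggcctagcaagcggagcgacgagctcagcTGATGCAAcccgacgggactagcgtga
In Aars the motif covers bases 112 to 105 before the start site, and TGATGAAA covers bases 9 to 16 after it, both on the strand opposite the gene. Tars carries it at bases 15 to 8 before the start, again on the opposite strand. Iars has it at bases 7 to 14 after the start on the opposite strand, and Yars at bases 3 to 10 after the start on its own strand. Gars, at chr6:55037751-55038030 on the plus strand, has TGATGAAA at bases 30 to 23 before the start. A match of letters is a description and does not show that a factor binds there.

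The labels and tissue were checked first. Pus1, measured by 1 probe, fell by 2.59 ± 0.38 on the log2 scale in the mutant (SD, n = 4 arrays), with adjusted p = 0.0364 in limma. Its normalized log2 intensity was 7.09, 7.16, 6.75 and 7.04 in mutants 1 to 4, against 9.16, 10.10, 9.36 and 9.79 in wild types 1 to 4. The sources used here do not say whether the probe lies in the altered stretch. The neuronal markers Snap25, Syt1, Rbfox3 and Tubb3 were well above background in all 4 mutants and all 4 wild types. Between 56.3% and 67.7% of probes were well above background in a channel, and the number of arrays limits the precision. Log2 ratios of mutant over wild type had an SD over probes of 0.279, 0.633, 0.395 and 0.329 on arrays 1 to 4, so array 2 spread most. Ratios correlated across probes, which are not independent replicates, at r = 0.34 between arrays 1 and 3 and r = 0.26 between arrays 2 and 4. Across the dye orientations array 1 correlated with array 2 at r = -0.39 and with array 4 at r = -0.10, and array 3 with array 2 at r = -0.14 and with array 4 at r = 0.07. The mutant's dye on each array is stated in the labels, so the direction of the ratios was kept. Dye orientation and any other difference between arrays 1 and 3 and arrays 2 and 4 cannot be told apart.

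Transcripts of the cytosolic synthetases were mostly higher in the mutant brain, whereas log2 ratios of the mitochondrial synthetases lay around 0. All 20 cytosolic and 14 of 16 mitochondrial members passed the filter on dim probes, and these 34 were well above background in all 8 mice. Mars2 was well above background in 2 mutants and 0 wild types and Nars2 in 0 mice, so neither was tested. In limma, 0 of 34 members passed an adjusted p under 0.05, against 0.00901% of all tested probes (3 of 33307). An unadjusted p under 0.05 with a higher value in the mutant was found for 10 members, all cytosolic, against 3.18% of the 15288 tested genes, and with a lower value for 0 members, against 2.98% of genes. In either direction this held for 6.05% of all tested probes. Those 10 were Cars, Nars, Gars, Aars, Mars, Tars, Sars, Lars, Iars and Wars. That count was 6 without replicate 1 and 6 without replicate 3. RNA of a whole section was measured, so a change in the number of cells of a type and in RNA per cell cannot be told apart.

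**Figure D1:**
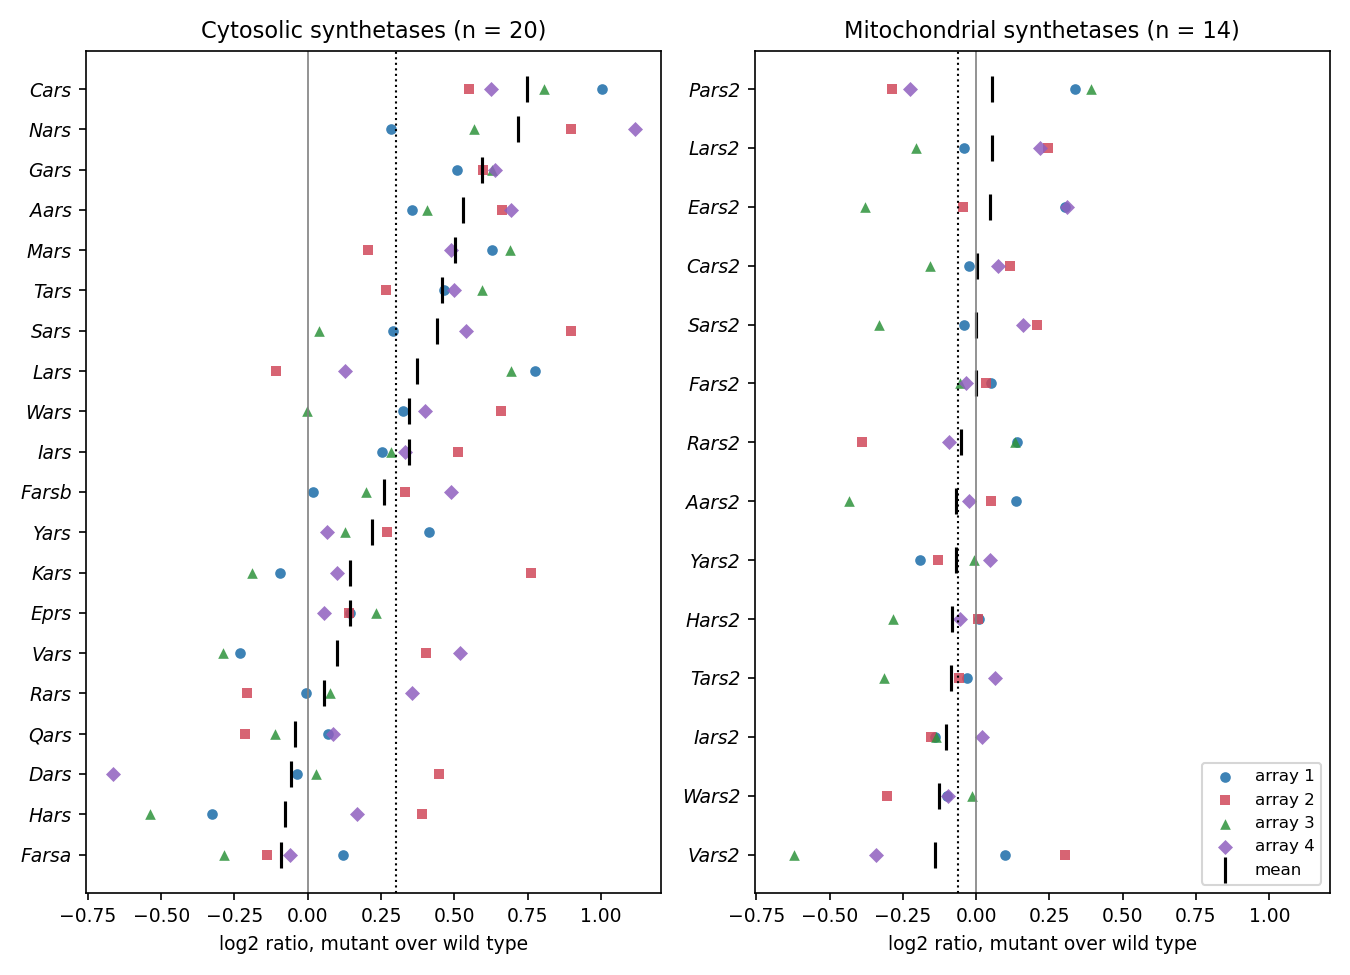
Log2 ratio of mutant over wild type for each tested synthetase on each of the 4 arrays (points) with its mean (bar), cytosolic members at left and mitochondrial members at right, and the dotted line at the median of the set. Cytosolic means run between -0.09 and 0.75 with a median of 0.30, and mitochondrial means between -0.14 and 0.05 with a median of -0.06.

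As a set, the 20 cytosolic members had a median log2 ratio of 0.30, with 16 means above 0 and 4 below. The median of all tested genes was 0.0069. On arrays 1 to 4 the cytosolic median was 0.27, 0.40, 0.16 and 0.38, and 15, 16, 14 and 18 of the 20 members were above 0. Centring each array on its median in place of loess gave cytosolic medians of 0.59, -0.09, 0.41 and -0.011, but that scaling also put the median of all genes at 0.31, -0.40, 0.19 and -0.27, and relative to it the cytosolic medians were 0.28, 0.31, 0.22 and 0.26. Higher on all 4 arrays were 11 cytosolic members (3 with median centring), against 6.25% of genes, and lower on all 4 arrays 0, against 5.44% of genes. The 14 tested mitochondrial members had a median of -0.06, with 4 means above 0 and 10 below. Their median was -0.0073, -0.019, -0.18 and -0.0024 on arrays 1 to 4, and without replicate 3 the set's median was 0.03. The sign of these small medians on single arrays depended on the scaling, and on array 1 the median was 0.039 with the scanner software's log ratio, 0.38 with median centring and, in values of the authors' deposited table, 0.043. Of the mitochondrial members 0 were higher and 1, Wars2, was lower on all 4 arrays.

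Cytosolic minus mitochondrial median was 0.28, 0.42, 0.34 and 0.38 on arrays 1 to 4, a mean of 0.354 ± 0.059 (SD, n = 4). The difference was thus above 0 on each array, and 16, 16, 16 and 18 of the 20 cytosolic members lay above the mitochondrial median of their array. With median centring it was 0.21, 0.43, 0.34 and 0.31. Averaged per member over arrays 1 and 3, which had the mutant in Cy5, the cytosolic ratios had a median of 0.18, and over arrays 2 and 4, with the mutant in Cy3, one of 0.40. For the mitochondrial set these medians were -0.11 and -0.010. Averaged per member over the female arrays the cytosolic median was 0.34, and over the male arrays 0.25.

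**Figure D2:**
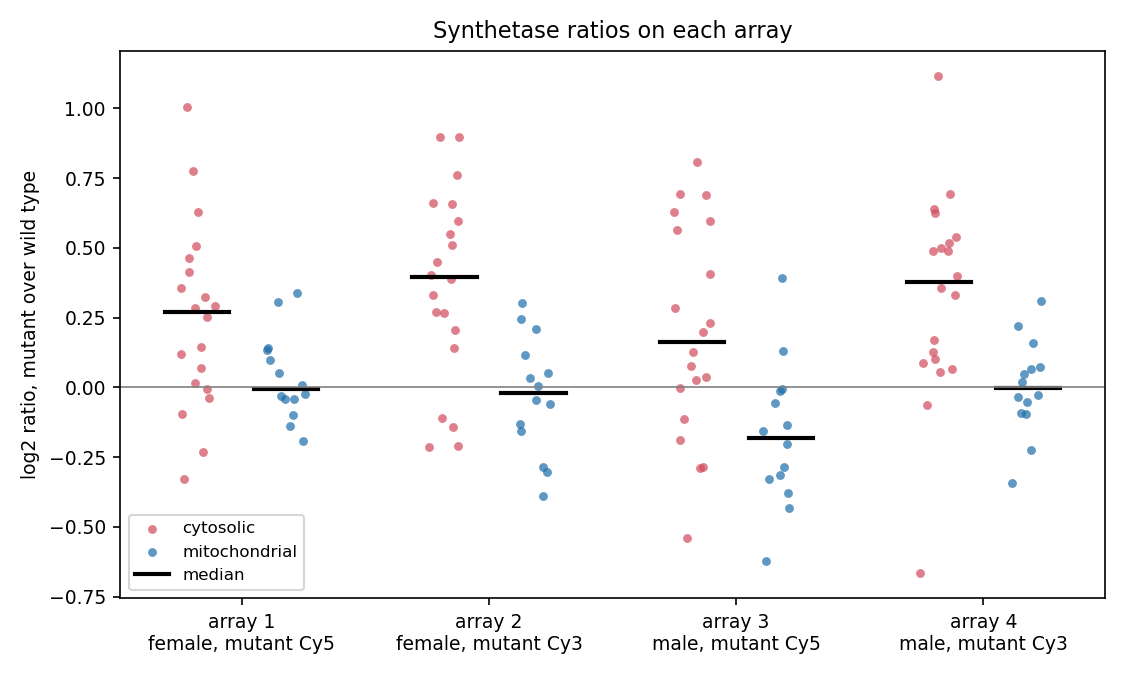
Log2 ratio of mutant over wild type of the 20 cytosolic (left in each pair) and 14 mitochondrial (right) synthetases on each array, with the median of each set as a bar and sex and dye given under the array number. Cytosolic medians are 0.27, 0.40, 0.16 and 0.38, and on every array the cytosolic bar lies above the mitochondrial one.

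Cars, the cysteinyl-tRNA synthetase, had the highest mean ratio of the 34 tested members. Its normalized log2 intensity was 13.86, 13.37, 13.92 and 13.57 in mutants 1 to 4, against 12.85, 12.82, 13.11 and 12.94 in wild types 1 to 4. The groups did not overlap, and the highest mutants were 3 and 1. Its log2 ratio was 1.00, 0.55, 0.81 and 0.62 on arrays 1 to 4, a mean of 0.75 ± 0.20 (1.68-fold), with adjusted p = 0.452 in limma. Adjusted p lay between 0.0464, without replicate 4, and 1.00 over the alternatives, and that fit called 933 probes, 2.8% of those tested. Nars, which charges tRNA with asparagine, had 13.11, 13.74, 13.18 and 13.55 in mutants 1 to 4, against 12.82, 12.84, 12.62 and 12.43 in wild types 1 to 4. Every mutant again lay above every wild type, but the ratios of 0.28, 0.90, 0.57 and 1.12 were larger on the arrays with the mutant in Cy3. The mean was 0.72 ± 0.37 (1.64-fold), with adjusted p = 0.474 in limma. Ratios of Sars, Aars and Iars, given below, were likewise larger on both arrays with the mutant in Cy3. Those of Cars and Mars were larger on both arrays with the mutant in Cy5.

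Gars, the glycyl-tRNA synthetase of both compartments, had nearly the same ratio on each array. Its log2 intensity was 15.72, 16.10, 15.74 and 15.84 in mutants 1 to 4, against 15.21, 15.50, 15.11 and 15.20 in wild types 1 to 4. Both groups were highest in replicate 2 and did not overlap. Ratios of 0.51, 0.60, 0.63 and 0.64 gave a mean of 0.59 ± 0.06 (1.51-fold), with adjusted p = 0.561 in limma. With median centring the mean was 0.47. Aars, the alanyl-tRNA synthetase and one of those with TGATGCAA in the promoter, had 14.06, 14.28, 14.29 and 14.30 in mutants 1 to 4, against 13.71, 13.62, 13.88 and 13.61 in wild types 1 to 4. Mutant 1 was the lowest mutant and still lay above wild type 3, the highest wild type. The ratio was 0.35, 0.66, 0.41 and 0.69 on arrays 1 to 4, a mean of 0.53 ± 0.17 (1.44-fold, adjusted p = 0.618 in limma).

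Mars supplies methionyl-tRNA, including that of the initiator, and is part of the multisynthetase complex. It had 11.01, 10.61, 11.13 and 10.91 in mutants 1 to 4, against 10.38, 10.40, 10.44 and 10.42 in wild types 1 to 4, as log2 intensity. The wild types lay close together and below all mutants, of which mutant 2 was lowest. Its ratios were 0.63, 0.21, 0.69 and 0.49, with a mean of 0.50 ± 0.21 (1.42-fold) and adjusted p = 0.702 in limma. Tars, the threonyl-tRNA synthetase, had 12.54, 12.18, 12.77 and 12.38 in mutants 1 to 4, against 12.08, 11.92, 12.17 and 11.88 in wild types 1 to 4. Mutant 2 and wild type 3 almost touched, and the groups did not overlap. Within arrays its ratio was 0.46, 0.27, 0.60 and 0.50 (mean 0.46 ± 0.14, 1.37-fold, adjusted p = 0.720 in limma).

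Sars, which charges tRNAs with serine and also the selenocysteine tRNA, had 14.61, 15.05, 14.59 and 14.89 in mutants 1 to 4, against 14.32, 14.15, 14.55 and 14.35 in wild types 1 to 4. The groups were separate by little, as mutant 3 and wild type 3 were nearly equal. Its ratio was 0.29, 0.90, 0.039 and 0.54 on arrays 1 to 4, a mean of 0.44 ± 0.37 (1.36-fold, adjusted p = 0.765 in limma). Iars, the isoleucyl-tRNA synthetase of the complex, had 12.21, 12.47, 12.22 and 12.39 in mutants 1 to 4, against 11.96, 11.96, 11.93 and 12.06 in wild types 1 to 4. All mutants lay above all wild types. The ratios of 0.25, 0.51, 0.29 and 0.33 gave a mean of 0.35 ± 0.11 (1.27-fold, adjusted p = 0.771 in limma). All 4 mutant levels thus lay above all 4 wild-type levels for 8 cytosolic members, against 0.883% of genes, and below them for 0 members, against 0.262% of genes.

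**Figure D3:**
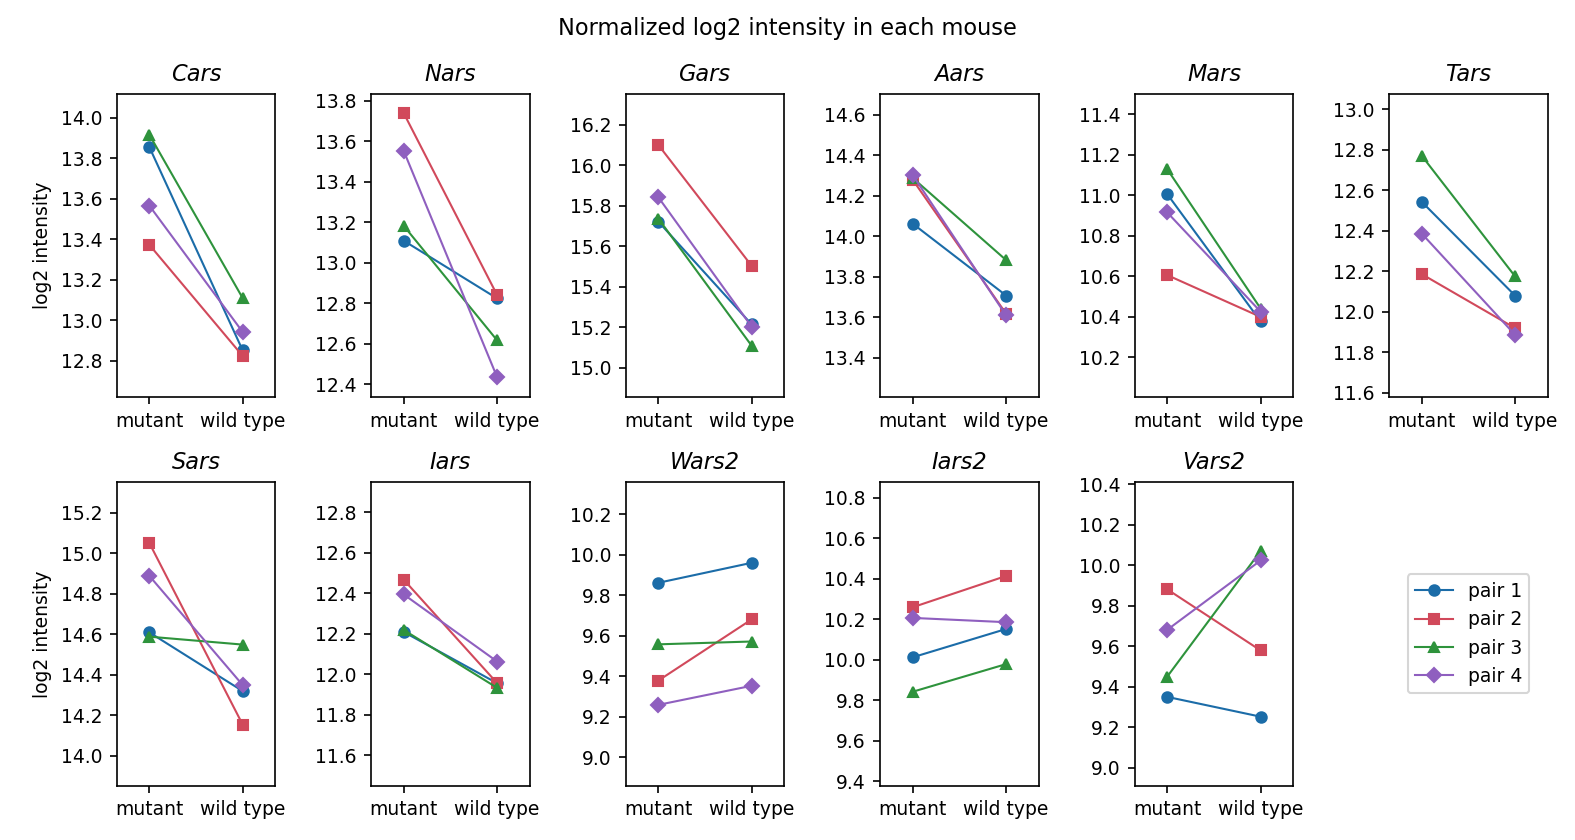
Normalized log2 intensity in each mouse for 8 cytosolic and 3 mitochondrial members, with mutants left and wild types right and lines that join the mice of 1 array; the intensity axis differs between genes, so levels cannot be compared between them. Cars through Iars have all mutants above all wild types, and Wars2, Iars2 and Vars2 overlap.

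The remaining cytosolic members were nearer to wild type or differed between arrays. Lars, the leucyl-tRNA synthetase, had a mean of 0.37 ± 0.43, from 0.77 and 0.69 on arrays 1 and 3 and -0.11 and 0.13 on arrays 2 and 4. Its limma p was 0.0162 in the fit with a dye term, which takes up a shift between orientations, and 0.0822 without that term (adjusted p = 0.765 and 0.999). Wars, the tryptophanyl-tRNA synthetase, had 0.35 ± 0.27 at its brighter probe and 0.34 ± 0.43 at the other, the first with a ratio of -0.0028 on array 3. The phenylalanyl-tRNA synthetase is built from 2 subunits, and their transcripts differed in sign, Farsa at -0.09 ± 0.17 and Farsb at 0.26 ± 0.20. Farsb, Eprs (0.14 ± 0.07), which joins glutamate and proline, and Yars (0.22 ± 0.16), the tyrosyl enzyme, were higher on all 4 arrays. For Yars the scanner software's log ratio gave 0.46, and values of the authors' deposited table gave 0.48. Vars (valine, 0.10 ± 0.42), Hars (histidine, -0.08 ± 0.43) and Kars (lysine, 0.14 ± 0.43) split by dye orientation, each lower than wild type on arrays 1 and 3 and higher on arrays 2 and 4. Rars (arginine) averaged 0.05 ± 0.23. Dars (aspartate) had -0.06 ± 0.46, with 0.45 on array 2 and -0.67 on array 4, and Qars (glutamine) had -0.04 ± 0.15. Adjusted p for these 12 members lay between 0.765 and 0.975 in limma.

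Members of the multisynthetase complex had a lower median ratio than the other cytosolic members, a difference that was not tested. The 8 complex members, Eprs, Iars, Lars, Qars, Mars, Kars, Rars and Dars, had a median of 0.14, with 3 higher on all 4 arrays. The 12 outside the complex had a median of 0.39, with 8 higher on all 4 arrays, against 6.25% of genes. With median centring only 3 of all 20 cytosolic members were higher on all 4 arrays. Per array, 1 to 4, the complex had medians of 0.11, 0.17, 0.15 and 0.11, and the others 0.31, 0.48, 0.16 and 0.51, so the sets were nearly equal on array 3. By catalytic fold, the 9 cytosolic class I enzymes had a median of 0.345 and the 10 class II enzymes one of 0.350, with Eprs, which holds both folds, left out. Against the promoter windows, the members with TGATGCAA had means of 0.53 (Aars), 0.46 (Tars), 0.35 (Iars) and 0.22 (Yars). The other 9 cytosolic members with a promoter entry ran between -0.09 (Farsa) and 0.59 (Gars), so those with and without the letters overlapped.

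As in the cytosolic set, no mitochondrial member passed an adjusted p under 0.05 in limma, against 0.00901% of all tested probes. Mutant and wild-type levels overlapped in all 14 tested mitochondrial members, and values in every mouse follow for the 3 with the smallest p. Wars2, which charges mitochondrial tryptophan tRNA, had log2 intensities of 9.86, 9.38, 9.56 and 9.26 in mutants 1 to 4, against 9.96, 9.68, 9.57 and 9.35 in wild types 1 to 4. Each mutant was below its own wild type, but the groups overlapped, and levels varied more between arrays than within them. The mean ratio was -0.13 ± 0.12, with adjusted p = 0.877 in limma, and -0.07 at a dimmer probe. Iars2, for isoleucine, had 10.01, 10.26, 9.84 and 10.21 in mutants 1 to 4, against 10.15, 10.41, 9.98 and 10.18 in wild types 1 to 4. Its groups overlapped, and array 4 alone had the mutant higher (-0.10 ± 0.08, adjusted p = 0.897 in limma). A dimmer Iars2 probe gave -0.07 ± 0.17, with the mutant lower on arrays 3 and 4. Vars2, for valine, had 9.35, 9.88, 9.45 and 9.68 in mutants 1 to 4, against 9.25, 9.58, 10.07 and 10.02 in wild types 1 to 4. The mutant was higher on both female arrays and lower on both male arrays (-0.14 ± 0.42, adjusted p = 0.917 in limma), and a second probe gave -0.04 ± 0.05.

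The other 11 tested mitochondrial members had means between -0.09 and 0.05, all with adjusted p of 0.921 or more in limma. Pars2 (proline, 0.05 ± 0.36), Lars2 (leucine, 0.05 ± 0.22) and Ears2 (glutamate, 0.05 ± 0.33) were above 0 in mean, each higher on 2 of 4 arrays. Cars2 (cysteine) had 0.0029 ± 0.12 at its brighter probe and -0.15 ± 0.14 at the other. Tars2 (threonine) likewise differed in sign between probes, with -0.09 ± 0.16 at the brighter and 0.06 ± 0.26 at the other. Fars2, whose single chain serves phenylalanine in mitochondria, had the smallest spread of the 34 tested members at -0.0010 ± 0.05, and Sars2 (serine) had -0.00099 ± 0.24. Below 0 lay Rars2 (arginine, -0.05 ± 0.25), Aars2 (alanine, -0.07 ± 0.25), Yars2 (tyrosine, -0.07 ± 0.11) and Hars2 (histidine, -0.08 ± 0.14). The 8 mitochondrial class I members had a median of -0.06 and the 6 class II members one of -0.035.

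Pairing the cytosolic and mitochondrial enzymes for the same amino acid compares genes with the same substrate within 1 array. For 14 of 15 pairs, over 14 amino acids, the mean difference of log2 ratios, cytosolic minus mitochondrial, was above 0, and for 7 pairs it was above 0 on all 4 arrays. Cars minus Cars2 was 1.03, 0.43, 0.96 and 0.55 on arrays 1 to 4 (mean 0.74 ± 0.30, SD, n = 4). Aars minus Aars2 was 0.22, 0.61, 0.84 and 0.72 (0.60 ± 0.27), and Tars minus Tars2 was 0.49, 0.33, 0.91 and 0.43 (0.54 ± 0.26). The other 4 of the 7 were the pairs for tryptophan (0.47 ± 0.39, but 0.011 on array 3), isoleucine (0.45 ± 0.15), serine (0.44 ± 0.17) and tyrosine (0.29 ± 0.26). Each of these 7 reached the smallest p that a two-sided exact sign-flip permutation test over 4 arrays allows, which is above 0.05, and had p = 0.268 after Benjamini-Hochberg adjustment over 15 pairs, so none could pass. Leucine (0.32 ± 0.63) split by dye orientation, above 0 on arrays 1 and 3. At the other end stood Farsa minus Fars2 (-0.09 ± 0.14) and the histidine pair (0.0035 ± 0.35), whose genes Hars and Hars2 neighbour each other in gene order. Pairs share a member where Eprs serves both glutamate and proline and where Fars2 meets both subunits.

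**Figure D4:**
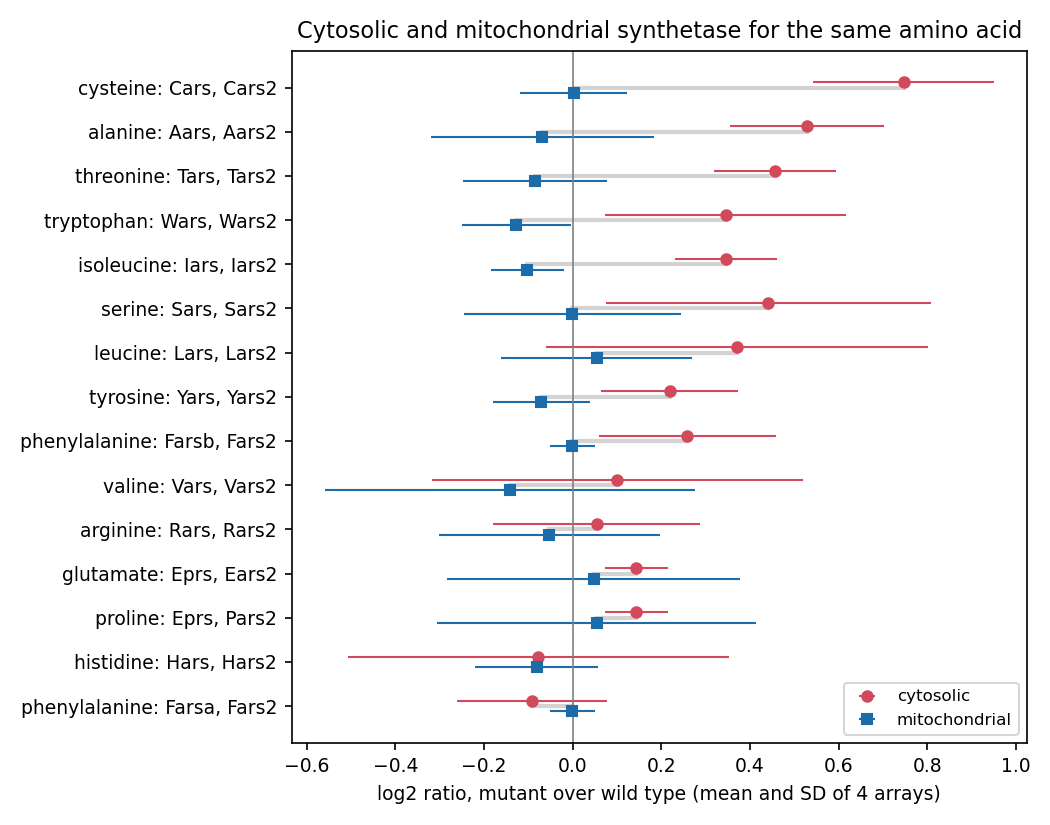
Mean log2 ratio of mutant over wild type with its SD over 4 arrays for the cytosolic (circles) and mitochondrial (squares) synthetase of each amino acid, joined by a grey line. Pairs are ordered by the difference on the page from cysteine at the top to Farsa with Fars2 at the bottom, and 14 of 15 have the cytosolic gene higher.

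Other genes that handle tRNAs before and after charging had a median close to that of all genes. Of 16 genes listed beside the synthetases 0 passed an adjusted p under 0.05 in limma, against 0.00901% of all tested probes, and their median was -0.00038. Higher on all 4 arrays were 0, against 6.25% of genes, and lower on all 4 was 1, against 5.44% of genes. The lower gene was Gatb, a subunit of the amidotransferase that makes mitochondrial glutaminyl-tRNA. It had -0.22, -0.34, -0.31 and -0.36 on arrays 1 to 4 (mean -0.31 ± 0.06, adjusted p = 0.810 in limma). Its partners Gatc and Qrsl1 had 0.04 ± 0.23 and 0.10 ± 0.22. Among the scaffolds of the complex Eef1e1 had 0.22 ± 0.19, Aimp1 0.11 ± 0.22 and Aimp2 -0.08 ± 0.22. Xpot, the exporter of tRNAs from the nucleus, had 0.39 ± 0.41, with -0.19 on array 2. Trnt1, which adds the CCA end to tRNAs, had 0.14 ± 0.18, and the elongation factors Eef1a1 and Tufm, which carry charged tRNA to cytosolic and mitochondrial ribosomes, had 0.03 ± 0.21 and -0.09 ± 0.46. Beside these, the ATF4 targets Trib3 (2.01 ± 0.53, adjusted p = 0.0364 in limma), Chac1 (1.54 ± 0.08, adjusted p = 0.0901 in limma), Mthfd2 (1.18 ± 0.53), Asns (1.01 ± 0.27) and Psat1 (0.38 ± 0.48) were above 0 on each array. So was Atf4 itself (0.72 ± 0.68). Of these genes Trib3 alone passed in limma. Atf4 differed between dye orientations, with 1.20 and 1.40 on arrays 1 and 3 and 0.052 and 0.22 on arrays 2 and 4. Psat1 had 0.20, 1.08, 0.22 and 0.0042 on arrays 1 to 4.

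Markers of brain regions differed between the mice of an array. Cerebellar markers were above 0 in median on each array, at 0.54, 0.56, 0.74 and 2.04, with 8 of 10 higher on all 4 arrays, against 6.25% of genes. The log2 of their summed intensity was 14.72 to 18.37 in mutants, against 13.46 to 17.82 in wild types. Markers of cortical excitatory neurons had medians of 0.29, -3.38, -0.14 and -0.28 over 8 genes. The log2 of their summed intensity was 13.93 to 15.54 in mutants and 13.75 to 16.49 in wild types. Striatal markers had 1.44, -0.41, 0.15 and -1.29 over 8 genes (14.66 to 16.16 in mutants and 14.66 to 16.01 in wild types). Those of myelin had -0.36, 1.68, -0.63 and -0.18 over 8 genes (17.54 to 19.43 in mutants and 17.81 to 18.43 in wild types). Well above background in all 8 mice were 8 of 10 cerebellar, 6 of 8 cortical, 6 of 8 striatal and 8 of 8 myelin markers. Without replicate 4, where the cerebellar median was highest, the cytosolic synthetase median was 0.31. It was 0.29 without replicate 2, where the cortical median was lowest. Cerebellar medians were above 0 on each array, so leaving out 1 array does not remove that difference. The part of regional content in the synthetase values was not tested.

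**Figure D5:**
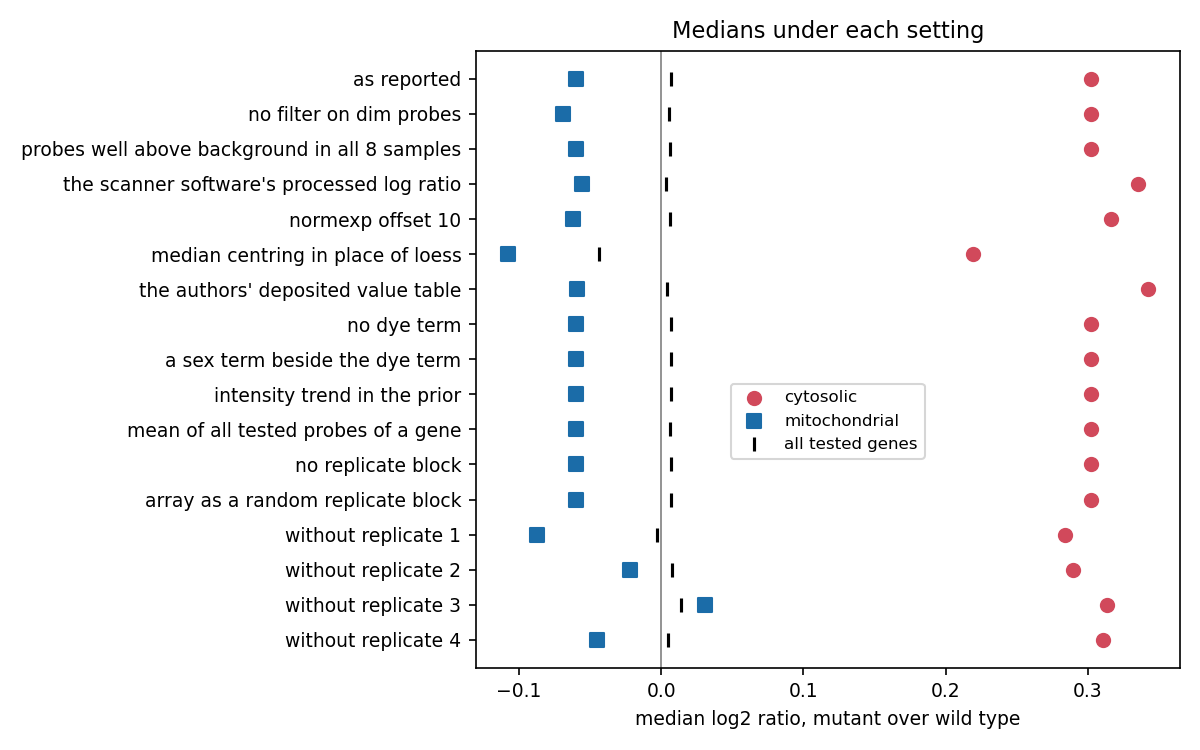
Median log2 ratio of mutant over wild type for the cytosolic set, the mitochondrial set and all tested genes under the reported setting and 16 others, 1 setting per line. The cytosolic median stays between 0.22 (median centring) and 0.34 (the authors' deposited table), and the mitochondrial one is above 0 without replicate 3 alone. Changes of the dye, sex or block terms or of the prior cannot move these medians.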

How the data were processed

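Gene expression was measured on Agilent 2-colour arrays, and the submitters' processing notes name Agilent Feature Extraction 10.7.3.1 as the scanner software. Spot and local background brightness were deposited as uncorrected median intensity, per the file headers. The processed intensity, corrected for background and dye bias, was also deposited by the authors, with a log10 ratio of Cy5 over Cy3. On array 1 this ratio differed from the log10 ratio of the processed intensities by up to 0.238 at a spot. Deposited marks (other values, 0 or 1) flag outlier and saturated spots and spots well above background. A deposited table of log2 values by the authors states no scale. For 15219 bright probes it followed log2 processed signal after quantile normalization, minus each probe's median, with r of at least 0.9989. Its column medians ran between -0.0271 and 0.0199 in mutants and between -0.0496 and 0.0364 in wild types, and the scale of dim probes is unknown.

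Background was corrected in the spot medians by normexp with an offset of 50, which draws ratios of dim spots toward 0, and log2 ratios of mutant over wild type were normalized within each array by loess. Outlier spots were left out and spots of a probe averaged. Levels per mouse are log2 intensities after Aquantile normalization. A probe was tested if well above background in at least 3 of 4 samples of either genotype, which left 33307 probes and 15288 genes after 8 probes without a value on an array were dropped, and a gene is its brightest tested probe. The limma fit (version 3.58.1, under R 4.3.3) had terms for genotype, signed by orientation, and for dye, on 2 residual and 3.65 prior degrees of freedom, with Benjamini-Hochberg adjustment over all tested probes. The fit was tested on simulated data with shifts of 1 to 4 on the log2 scale. Every tested synthetase had a smaller mean ratio, so that test does not cover differences of their size. The array is the block of each pair. Deviations from the genotype means correlated at r = 0.791, 0.314, 0.494 and 0.740 for mice of numbers 1 to 4, where the highest with another number was 0.388, 0.690, 0.388 and 0.690. Number 2 thus correlated best with another number, but the mice of a number share an array and every pair lay above 0.1, so they were taken as pairs. Pair differences were tested in scipy 1.17.1. Alternatives changed the filter, background correction, scaling, source, dye, sex and block terms, prior, probe choice or left out a replicate.

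The members and lists were chosen with earlier results of these data known. Values in every mouse are given for the 8 cytosolic members with the smallest p among those with 1 sign on all arrays and for the 3 mitochondrial members with the smallest p. Probes were named through a RefSeq gene table of GRCm38.p6, which named 27509. An older build is named in the headers, and coordinates are given for promoters alone.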

Additional observations from a re-analysis of the deposited data

Results flagged for a closer look

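Of 36 sets of 4 array values that were examined, 2 had 1 array set apart from the rest by a gap large for the whole range. In Iars2 the ratios of arrays 1 to 3 lay together and array 4 was higher at the brighter probe, with a gap of 0.897 of the range. A dimmer Iars2 probe had 0.013, 0.13, -0.16 and -0.25 on arrays 1 to 4, so array 4 was lowest there. The medians of the mitochondrial set had array 3 lower than the others, with a gap of 0.904 of the range. Chance alone sets an array apart in this way in about 1 of 20 sets.

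Of 34 members compared between sexes, 5 had both females on one side of 0 and both males on the other (14.7%), as had 1113 of all 15288 tested genes (7.28%). The mean log2 ratio of mutant over wild type, females minus males, was -0.323 for Rars, 0.323 for Aars2, 0.0864 for Fars2, 0.177 for Hars2 and 0.681 for Vars2. Vars2 averaged 0.20 over females and -0.48 over males at its brighter probe, and the second probe was below 0 on all 4 arrays. With 2 arrays per sex, these differences were not tested.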

How the results depend on the processing

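Over all probes 3 passed an adjusted p under 0.05, against 0 with the scanner software's log ratio, 0 with normexp offset 10, 0 in the authors' deposited table, 0 with a sex term, and 0 to 933 when a replicate was left out. As for pairing, the count was 1 with no replicate block and 10 with the array as a random replicate block, and no synthetase was called in either. Cars alone was called, in 1 setting (without replicate 4, adjusted p = 0.0464). Members higher on all 4 arrays in the cytosolic set were 3 with median centring, against 11, while 12 lay above the median of all genes on every array in that setting, against 11. Leaving out a replicate put the mitochondrial median between -0.087 and 0.031 and the cytosolic minus mitochondrial difference between 0.28 and 0.37. The cytosolic median stayed between 0.22 and 0.34. Of 544 member values under 16 settings, 539 moved by less than the SD over arrays and gained no call, 4 moved by more (Yars in 2 settings, Gars and Fars2 with median centring), and 1 was the call of Cars. In this balanced design, changes of the dye, sex or block terms or of the prior cannot move a mean ratio. The filter changes kept the same probe of each of the 34 members. All these settings could thus alter calls alone, and they say nothing about the stability of values or signs. A total of 15 cytosolic and 7 mitochondrial members kept their sign in every setting. The cause of these changes was not tested. With 4 arrays and 2 residual degrees of freedom, and with ratios of dim probes drawn toward 0, small differences of single members may go undetected. How often differences of that size would be found was not measured.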
